A study of Mus musculus with 15 samples.

Results

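The potassium channel genes described here are the mouse genes whose symbol begins with Kcn followed by a subfamily letter or letters and a number, such as Kcnj4 or Kcnip1. The rule used the symbol alone and no measured value, and it found 92 genes among the 24346 of the expression table. They comprise 40 pore-forming voltage-gated subunits, 15 inward rectifiers, 14 two-pore channels, 5 calcium-activated channels, 3 sodium- or pH-activated channels and 15 auxiliary subunits. The study followed mouse astrocytes of the C57BL/6 strain during their chemical conversion toward neurons, as paired-end reads of 150 bases from total RNA. The groups were astrocytes before induction (D0), chemically induced cells on days 4, 8 and 16 (D4, D8, D16) and primary neurons (PN), with 3 libraries in each. Every group shared the strain and was labelled as brain, and no transgene or deletion was named for any of them. The labels do not name the chemicals, the age of the mice, how pure the astrocytes or neurons were, or whether libraries of a group came from separate cultures. P-values therefore measure only the spread between these libraries, which may be technical.

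Potassium channels let potassium leave or enter the cell down its gradient, which sets the resting potential, ends action potentials and paces firing. Voltage-gated channels open on depolarization, inward rectifiers and two-pore channels hold the resting potential, and calcium-activated channels couple calcium entry to repolarization. Astrocytes are known for a strongly negative resting potential carried by inward rectifiers and two-pore channels, through which they buffer extracellular potassium, whereas neurons use a wide range of voltage-gated channels.

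Levels are given as FPKM, fragment counts scaled to transcript length and sequencing depth, as the authors deposited them, so genes are compared per length. Changes are differences of log2(FPKM + 1), a scale on which a gene near 0 seems to change less than it does. Testing required 1 FPKM or more in 3 or more of the 15 libraries, and a gene was called when limma's test gave an adjusted p below 0.05 and the change was at least 1. In these bulk samples, fewer cells of a type and less RNA per cell cannot be told apart. FPKM totals were 548309 to 787080 per library, 11861 to 12907 genes reached 1 FPKM, and libraries of a group correlated at 0.966 to 0.987 across genes. The 8 astrocyte markers summed to 826 to 1855 FPKM in D0, 40.2 to 45.6 in D16 and 139 to 249 in PN. The 8 neuron markers summed to 273 to 388 FPKM in D0, of which Stmn2 made up a mean of 304, to 773 to 866 in D16 and to 3102 to 4302 in PN. The primary neuron libraries thus held astrocyte transcripts, with Slc1a3, a glutamate transporter of astrocytes, at a mean of 80.3 FPKM and Gfap at 30.3. The 6 ependymal and choroid plexus markers summed to 106 to 285 FPKM in D0, 3.48 to 6.26 at D16 and 28.6 to 66.7 in PN. The 7 markers of the oligodendrocyte lineage summed to 53.2 to 97.8 FPKM in D0, of which Olig2 made up a mean of 72.4, to 9.02 to 9.19 at D16 and to 10.7 to 21.01 in PN. The endothelial and the mural cell markers each summed to at most 10.9 FPKM in every library. In the GENCODE M21 annotation 26 of the 92 genes share exon bases with a gene on the opposite strand, and the strand setting of the counting is not given in the sources used here, so reads of such pairs cannot be told apart.

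Of the 92 genes, 62 passed the filter and were tested. The other 30 included 4 listed at 0 in every library (Kcnj1, Kcnk16, Kcnk18 and Kcnmb3), and 23 of the 30, these 4 among them, stayed under 1 FPKM everywhere. The remaining 7 reached 1 FPKM in 1 or 2 libraries: Kcnb2, Kcnh4 and Kcnk4 in PN, Kcnj14 and Kcnn4 in D0, Kcnq1 in D8 and Kcnk15 in D16. The number of genes at or above a mean of 1 FPKM was 31 in D0, 40 in D4, 41 in D8, 47 in D16 and 59 in PN.

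Against D0, 17 of the 62 tested genes were called higher and 8 lower at D4, where 27.8% of all 13983 tested genes were called, 13.6% higher and 14.2% lower. At D8 the counts were 23 higher and 9 lower, beside 32.4% of all genes called, 15.5% higher and 16.9% lower. At D16 they were 27 higher and 11 lower, beside 35.3% of all genes called, 16.6% higher and 18.7% lower. In primary neurons 41 were higher and 4 lower, beside 41% of all genes called, 17.1% higher and 23.9% lower, and without D0 replicate 2 they were 40 higher and 2 lower. The median change of the 62 genes was 0.37, 0.57, 0.69 and 1.47 in these 4 comparisons, against −0.01, 0.00, −0.01 and −0.12 over all tested genes. The shift of −0.12 in PN moved to −0.01 when FPKM were rescaled to equal totals, so changes in PN are relative to it. The filter admits a gene through whichever group holds it high, so these counts describe only the genes that passed. All of these comparisons share the D0 libraries.

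**Figure D1:**
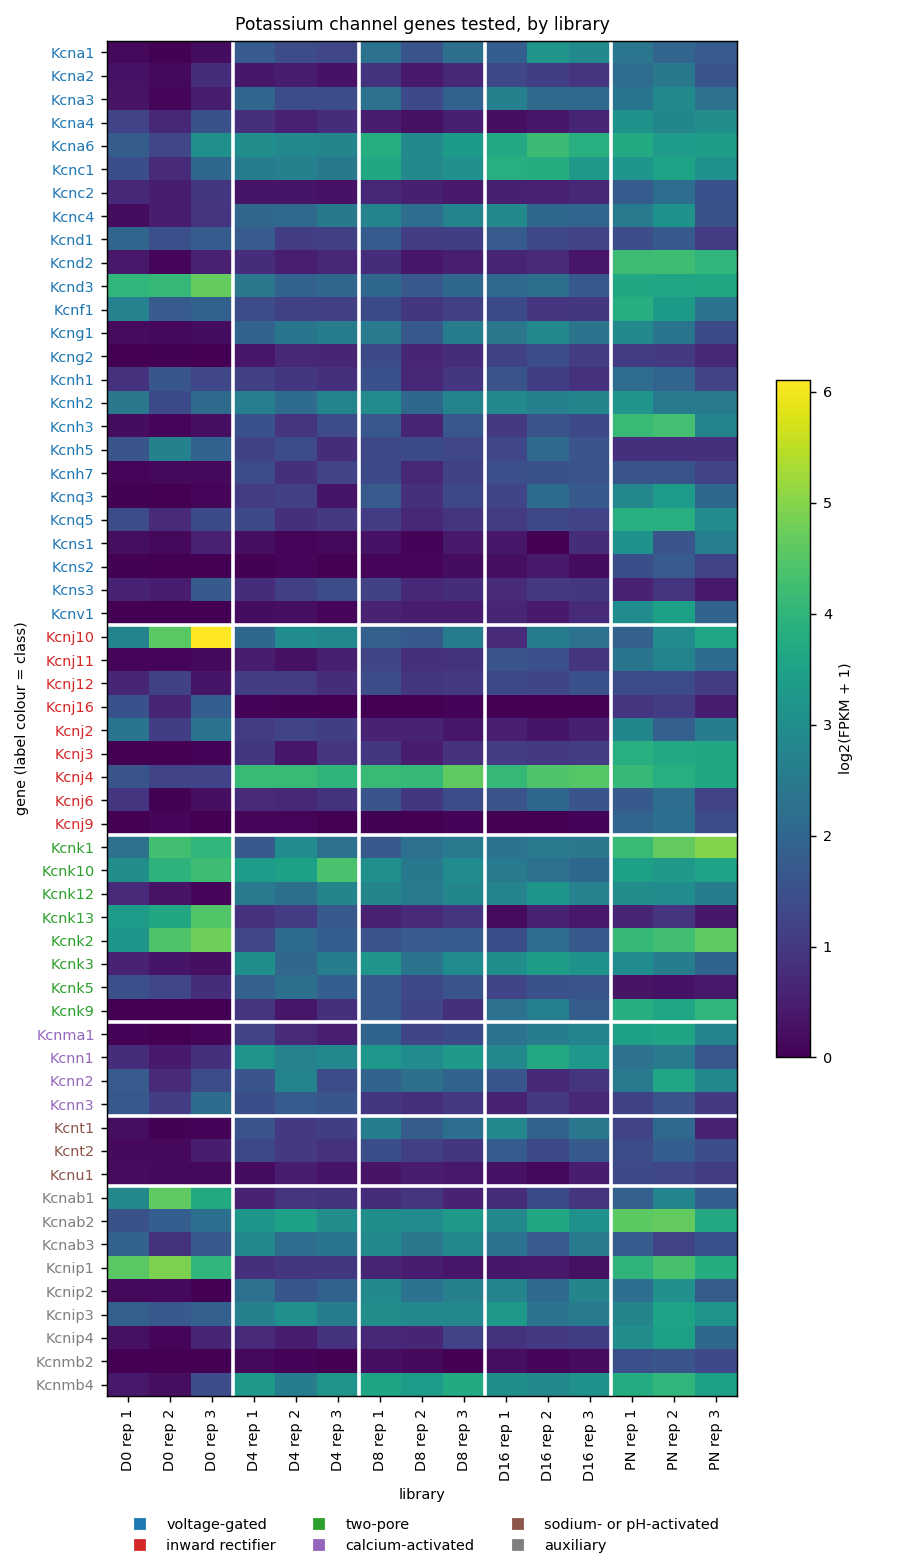
log2(FPKM + 1) (colour scale) of 58 of the 62 tested potassium channel genes (vertical axis, label colour by class) in the 15 libraries (horizontal axis, white lines between groups). Kcnj4 is dark in D0 and bright from D4 on, and Kcnip1, Kcnd3, Kcnk2, Kcnk13 and Kcnab1 are brighter in D0 than at D16. Kcnj10 varies between the D0 libraries, and D0 replicate 1 (5.63 FPKM) is close to D16 replicate 2 (4.93 FPKM).

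Kcnq3 encodes a subunit of the Kv7 channels of the M-current, a slow brake on repetitive firing. It measured 0.0334, 0 and 0.0815 FPKM in D0, 1.12, 1.23 and 0.281 at D4, 2.37, 0.783 and 1.503 at D8, 1.43, 3.48 and 2.31 at D16 and 6.16, 9.46 and 3.09 in PN. It was higher than D0 at D16 (1.67 ± 0.33, adjusted p = 0.000468, the change given with its SE on the log2 scale) and in PN (2.699 ± 0.33, adjusted p = 3.46e-06). Its D16 level was lower than that of PN (−1.03 ± 0.33, adjusted p = 0.0141), although the ranges overlapped and the call was lost without D16 replicate 1 or PN replicate 1 or 2. Kcnq5, which also contributes to the M-current, was at 1.62, 0.694 and 1.598 FPKM in D0, 1.14, 1.49 and 1.36 at D16 and 13.5, 13.3 and 6.7002 in PN. It differed little between D0 and D16 (0.04 ± 0.25, adjusted p = 0.898) and was lower at D16 than in PN (−2.33 ± 0.25, adjusted p = 1.19e-06), with no overlap. Kcnq1, of cardiac and epithelial channels, did not pass the filter and was at most 1.75 FPKM.

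In the Kv1 family, whose members sit on axons and shape spike threshold, 3 of 5 tested genes were higher at D16 than at D0 and all 5 were higher in PN. Over all tested genes the shares called higher were 16.6% at D16 and 17.1% in PN. Kcna1 measured 0.0908, 0.0207 and 0.159 FPKM in D0, 2.38, 1.69 and 1.46 at D4, 3.91, 2.01 and 3.81 at D8, 2.55, 8.04 and 6.63 at D16 and 4.24, 2.99 and 2.396 in PN. All induced and PN libraries were above D0, and the D16 and PN ranges overlapped. The change at D16 was 2.52 ± 0.300 (adjusted p = 3.55e-06) and that in PN 1.93 ± 0.300. Kcna6 was the most abundant Kv1 gene at D16, with 11.9, 16.8 and 13.5 FPKM against 2.502, 1.46 and 7.35 in D0 and 12.3, 9.38 and 9.74 in PN, and it rose by 1.85 ± 0.34 at D16 (adjusted p = 0.000219). Kcna6 shares 2355 exon bases with a gene on the opposite strand, Gm26673. Kcna3 rose by 2.004 ± 0.26 (adjusted p = 8.60e-06), from 0.0704 to 0.375 FPKM in D0 to 3.34 to 5.33 at D16.

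Kcna4 was the only one of the 5 tested Kv1 genes called different between D16 and PN. Kcna2, the usual axonal partner of Kcna1, measured 0.225, 0.0954 and 0.752 FPKM in D0, 0.314, 0.415 and 0.227 at D4, 0.846, 0.357 and 0.619 at D8, 1.53, 1.18 and 0.904 at D16 and 3.53, 4.503 and 2.07 in PN. Its D16 libraries were above D0 and below PN, but the change of 0.72 ± 0.23 at D16 was under the size required for a call, as was that of D16 against PN (−0.96 ± 0.23, adjusted p = 0.00189). Kcna4, a fast-inactivating A-type subunit, was at 1.36, 0.603 and 1.86 FPKM in D0, 0.18996, 0.294 and 0.559 at D16 and 7.74, 6.04 and 6.96 in PN. It was lower at D16 than in PN (−2.56 ± 0.202, adjusted p = 5.39e-08). At D16 its libraries were also all below D0, with a change of −0.72 ± 0.202 that was not called.

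Kv3 channels allow brief spikes and fast firing. Kcnc1 measured 1.75, 0.646 and 3.08 FPKM in D0, 5.04, 5.31 and 4.54 at D4, 11.5, 6.37 and 7.57 at D8, 13.3, 12.9 and 8.92 at D16 and 8.31, 10.6 and 7.72 in PN, and rose by 2.24 ± 0.28 at D16 (adjusted p = 5.92e-06). The call for Kcnc1 at D4 was lost without D0 replicate 2. Kcnc4, an A-type Kv3 subunit, measured 0.159, 0.415 and 0.891 FPKM in D0, 3.06, 3.23 and 4.55 at D4, 5.63, 3.61 and 5.67 at D8, 6.28, 3.16 and 2.96 at D16 and 4.65, 7.702 and 1.84 in PN. Its change was 1.76 ± 0.35 at D16 (adjusted p = 0.000436) and 1.83 ± 0.35 in PN.

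Kcnc2, a Kv3 gene of fast-spiking interneurons among other cells, behaved otherwise. It was at 0.621, 0.415 and 0.951 FPKM in D0, 0.455, 0.4805 and 0.627 at D16 and 2.45, 3.65 and 1.92 in PN. The D16 libraries overlapped D0 and lay below PN (−1.25 ± 0.18, adjusted p = 2.35e-05). Its call in PN against D0 was lost without PN replicate 2, which left a change of 0.95.

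The Kv4 family and its KChIP subunits, which together carry the somatodendritic A-type current, held the 2 largest differences of D16 against PN among the 62 genes, those of Kcnip1 and Kcnd2. Kcnd2 measured 0.327, 0.0561 and 0.472 FPKM in D0, 0.742, 0.424 and 0.601 at D4, 0.724, 0.322 and 0.4303 at D8, 0.548, 0.647 and 0.299 at D16 and 17.3, 17.7 and 15.2 in PN. The D0 and induced libraries all stayed under 1 FPKM, while the mean in PN was 33.6-fold that at D16. The difference of D16 against PN was −3.57 ± 0.17 (adjusted p = 4.14e-10), and that of D16 against D0 was 0.23 ± 0.17 (adjusted p = 0.266). The promoter window of Kcnd2, from 250 bases before to 50 after the start site, lies at chr6:21215096-21215395 on the plus strand in RefSeq (GRCm38.p6) and is shown because the gene stayed low while other channel genes rose.
Kcnd2: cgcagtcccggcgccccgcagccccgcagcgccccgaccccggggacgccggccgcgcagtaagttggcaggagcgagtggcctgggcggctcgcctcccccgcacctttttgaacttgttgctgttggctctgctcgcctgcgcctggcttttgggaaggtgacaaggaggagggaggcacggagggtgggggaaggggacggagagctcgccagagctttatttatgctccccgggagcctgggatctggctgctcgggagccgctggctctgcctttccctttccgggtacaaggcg
The window held 68.7% G or C and 26 CG dinucleotides, and no match to the 6 motifs searched, which are listed with the promoters of all the genes further on.

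Kcnd3 and Kcnip1 were among the most abundant channel genes of D0 and fell early. Kcnd3, another Kv4 subunit, measured 15.3, 15.9 and 24.2 FPKM in D0, 4.37, 2.79 and 3.02 at D4, 3.14, 2.29 and 3.17 at D8, 3.22, 3.804 and 2.23 at D16 and 11.7, 11.2 and 11.6 in PN. It was lower than D0 at D16 (−2.24 ± 0.21, adjusted p = 2.50e-07), and the induced libraries lay below both D0 and PN. The ratio of Kcnd3 to Kcnd2 was 46.7 to 283 in D0, 5.88 to 7.45 at D16 and 0.631 to 0.762 in PN. Kcnd1, also a tested Kv4 gene, was called in no comparison. It measured 1.81 to 2.96 FPKM in D0, 1.38 to 2.37 at D16 and 1.09 to 2.33 in PN. Kcnip1, a KChIP subunit, measured 22.4, 29.2 and 15.2 FPKM in D0, 0.794, 0.964 and 0.984 at D4, 0.545, 0.386 and 0.282 at D8, 0.304, 0.364 and 0.2003 at D16 and 14.8, 19.2 and 12.8 in PN. The induced cells were below 1 FPKM in every library, and D0 and PN overlapped. The change was −4.13 ± 0.21 against D0 (adjusted p = 5.49e-10) and −3.67 ± 0.21 against PN (adjusted p = 1.86e-09).

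At D16 astrocyte markers moved with Kcnd3 and Kcnip1: 8 of 8 were called lower than D0 and 5 of 8 lower than PN. In PN against D0 they parted: 7 of 8 markers were called lower, while neither Kcnd3 nor Kcnip1 was called. Of the 5 ependymal and choroid plexus markers tested, 3 were called lower at D16 than at D0 and 4 lower than in PN. Of the 4 oligodendrocyte lineage markers tested, 1 was called lower and 1 higher at D16 than at D0. The part of these cell types in the levels of Kcnd3, Kcnip1 and the other channel genes that fell at D16 was not tested. None of the other 3 KChIP genes was called lower at D16 than at D0. Kcnip2 rose from 0 to 0.103 FPKM in D0 to 3.22 to 5.87 at D16 and 2.49 to 7.53 in PN, a change of 2.44 ± 0.29 at D16 (adjusted p = 4.01e-06). Kcnip4 measured 0.201, 0.0693 and 0.553 FPKM in D0, 0.849, 1.05 and 1.204 at D16 and 7.14, 10.1 and 3.17 in PN, and was lower at D16 than in PN (−1.83 ± 0.29, adjusted p = 5.68e-05). Kcnip3, also known as the calcium sensor DREAM, was called higher at D8 and in PN, while its D16 change of 0.89 ± 0.24 was not called.

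**Figure D2:**
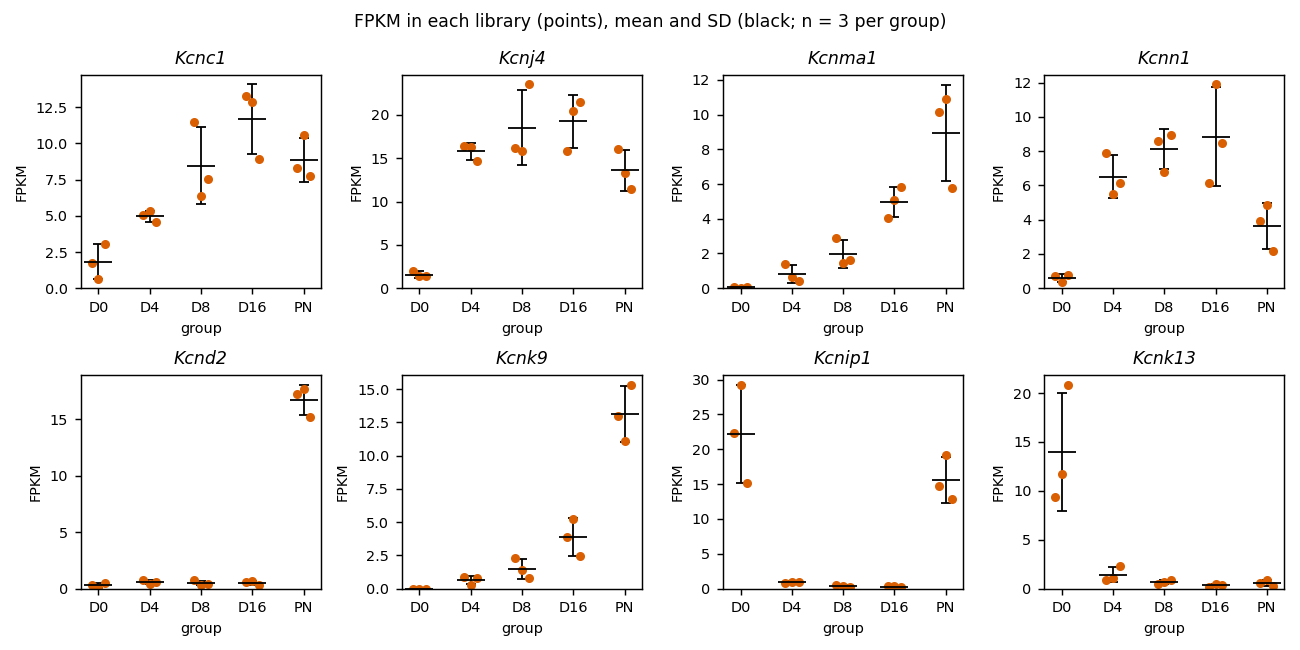
FPKM (vertical axes, linear from 0) of 8 potassium channel genes in the 5 groups (horizontal axes). Points are libraries and black bars the mean and SD of 3. Kcnc1, Kcnj4, Kcnma1 and Kcnn1 are higher at D16 than at D0, Kcnd2 is high only in the PN libraries, and Kcnip1 is high in D0 and PN.

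Among the EAG, ERG and ELK channels, 2 of 5 tested genes were higher at D16, beside 16.6% of all tested genes. Kcnh3, an ELK channel of forebrain neurons, measured 0.158, 0.0542 and 0.192 FPKM in D0, 1.91, 0.917 and 1.698 at D4, 2.14, 0.555 and 2.18 at D8, 1.02, 2.03 and 1.54 at D16 and 16.3, 18.5 and 5.69 in PN. All induced libraries lay above D0 and below PN, and D16 was lower than PN (−2.39 ± 0.36, adjusted p = 3.54e-05). Its rise of 1.14 ± 0.36 at D16 was no longer called without D16 replicate 2. Kcnh7, an ERG channel, was at 0.0743 to 0.102 FPKM in D0 and 1.795 to 2.01 at D16 (1.41 ± 0.19, adjusted p = 1.42e-05). It shares 696 exon bases with Gca on the opposite strand, whose mean was 14.7 FPKM in D0 and 13.1 at D16. Kcnh2, the ERG channel of the heart and of many neurons, measured 4.47, 1.61 and 3.29 FPKM in D0, 6.49, 5.37 and 5.89 at D16 and 8.14, 4.61 and 4.76 in PN, and its change of 0.81 ± 0.29 at D16 was not called. Kcnh5 was the only voltage-gated gene called lower in PN than in D0 (−1.24 ± 0.26, adjusted p = 0.000529), a call lost without D0 replicate 2.

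The silent subunits form no channel alone and modify other voltage-gated channels. Kcng1 and Kcng2 were called higher at D16, by 2.38 ± 0.33 and 1.21 ± 0.19, Kcng1 from 0.0877 to 0.156 to 4.08 to 6.36 FPKM. Kcng2 reached only 1.09 to 1.705 FPKM. Kcns1, Kcns2 and Kcnv1 were called higher in PN and not at D16, and each was lower at D16 than in PN. Kcnv1 measured 0, 0.0142 and 0 FPKM in D0, 0.575, 0.355 and 0.687 at D16 and 6.89, 10.1 and 2.84 in PN (−2.18 ± 0.27 for D16 against PN, adjusted p = 5.31e-06). Its D16 libraries were all above D0 and all below PN. Kcns1 measured 0.319, 0 and 0.713 FPKM at D16 and 7.88, 2.04 and 5.15 in PN.

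Kcnf1 is the silent subunit that moved in opposite directions. It measured 5.52, 2.39 and 2.73 FPKM in D0, 1.65, 1.26 and 1.22 at D4, 1.57, 0.994 and 1.25 at D8, 1.58, 0.9096 and 1.002 at D16 and 13.04, 9.001 and 4.13 in PN. Every induced library lay below every D0 and PN library, while D0 and PN overlapped. Against D0 it was lower at D16 (−1.02 ± 0.31, adjusted p = 0.01) and higher in PN (1.04 ± 0.31, adjusted p = 0.00823). The D16 call was lost without D0 replicate 1, D16 replicate 2 or D16 replicate 3, and the PN call without D0 replicate 2 or 3 or PN replicate 1 or 2. The difference of D16 against PN was called in every setting tried.

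Among the inward rectifiers, 9 of 15 genes were tested. At D16 4 were higher and 3 lower than D0, beside 16.6% and 18.7% of all tested genes. Kcnj4, a strong inward rectifier of forebrain neurons, rose at once and stayed high. It measured 2.03, 1.37 and 1.35 FPKM in D0, 16.4, 16.2 and 14.7 at D4, 16.2, 15.8 and 23.5 at D8, 15.8, 20.5 and 21.5 at D16 and 16.1, 13.3 and 11.4 in PN. The change was 2.71 ± 0.19 at D4, 2.97 ± 0.19 at D16 (adjusted p = 4.56e-09) and 2.497 ± 0.19 in PN, and the D16 and PN libraries overlapped. The related Kcnj2 went the other way, with 4.23, 1.204 and 3.98 FPKM in D0, 0.437, 0.275 and 0.449 at D16 and 5.99, 2.68 and 5.02 in PN. It was lower at D16 than at D0 (−1.48 ± 0.29, adjusted p = 0.000393) and lower than in PN (−1.96 ± 0.29). Kcnj12, the third of this group of strong rectifiers, changed by 0.65 ± 0.21 at D16 and was called in no comparison.

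Kcnj10 encodes the main inward rectifier of astrocytes, and Kcnj16 its partner subunit. Kcnj10 had the highest mean of all 92 genes in D0, but its libraries spread widely. It measured 5.63, 22.6 and 68.1 FPKM in D0, 3.09, 6.84 and 6.27 at D4, 2.64, 2.34 and 4.92 at D8, 0.643, 4.93 and 3.94 at D16 and 2.65, 6.77 and 11.1 in PN. All D16 and D8 libraries lay below all D0 libraries, while D4 and PN overlapped D0. It was lower at D16 (−2.604 ± 0.69, adjusted p = 0.0039), a call kept in all 24 alternatives. Its D4 call was lost without D0 replicate 2 or 3 or D4 replicate 1 or 3, and its PN call in 15 of 24 alternatives. Kcnj16 measured 1.902, 0.546 and 2.53 FPKM in D0, was listed at 0 in all 3 D16 libraries, and measured 0.919, 1.13 and 0.411 in PN. The fitted change was −1.33 ± 0.24 at D16 (adjusted p = 0.0002).

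The promoter windows of the 2 genes are shown together because their transcripts moved in opposite directions. That of Kcnj4 lies at chr15:79505192-79505491 on the minus strand and that of Kcnj10 at chr1:172340960-172341259 on the plus strand, with GGGCGGG, or its complement, in capitals.
Kcnj4: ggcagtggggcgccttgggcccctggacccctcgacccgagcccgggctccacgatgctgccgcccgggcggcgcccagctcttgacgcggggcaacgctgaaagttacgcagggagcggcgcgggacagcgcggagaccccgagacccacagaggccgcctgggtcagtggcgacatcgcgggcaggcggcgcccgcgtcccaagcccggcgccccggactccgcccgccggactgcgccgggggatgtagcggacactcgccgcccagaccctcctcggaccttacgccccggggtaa
Kcnj10: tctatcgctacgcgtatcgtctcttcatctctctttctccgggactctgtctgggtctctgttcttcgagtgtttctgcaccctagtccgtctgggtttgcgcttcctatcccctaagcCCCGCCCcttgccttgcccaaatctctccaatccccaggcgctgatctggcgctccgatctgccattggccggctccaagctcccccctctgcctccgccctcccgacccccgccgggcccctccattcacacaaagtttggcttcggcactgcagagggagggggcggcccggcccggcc
The Kcnj4 window held 76% G or C with 41 CG dinucleotides, and that of Kcnj10 63.7% with 21. The Kcnj10 window held 1 GGGCGGG match, 131 bases upstream of the start site, and that of Kcnj4 none.

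The G protein-gated rectifiers, which slow firing when inhibitory receptors are active, were lower at D16 than in PN in 2 of the 3 tested genes. Over all tested genes 15% were called lower. Kcnj5 did not pass the filter and was at most 0.337 FPKM. Kcnj3, the shared subunit of most such channels, measured 0, 0 and 0.04299 FPKM in D0, 1.16, 1.06 and 1.08 at D16 and 13.4, 11.8 and 11.4 in PN. The D16 libraries were above D0 and below PN, with a difference from PN of −2.65 ± 0.18 (adjusted p = 1.15e-08). The rise of 1.05 ± 0.18 over D0 lost its call under quantile normalization, and Kcnj3 shares 1621 exon bases with Gm26794 on the opposite strand. Kcnj9 was at 0, 0 and 0.0387 FPKM at D16 and 2.97, 3.704 and 1.67 in PN, lower (−1.86 ± 0.18, adjusted p = 3.35e-07). Kcnj6, in contrast, reached 1.97 to 3.09 FPKM at D16 and 1.33 to 3.598 in PN, with a difference of 0.02 ± 0.27. Its change from D0 was 1.33 ± 0.27 at D16 (adjusted p = 0.000477). Kcnj11, the pore of the ATP-sensitive channel, rose from 0.0631 to 0.0886 FPKM in D0 to 0.897 to 2.04 at D16 and 3.37 to 5.799 in PN.

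Two-pore channels carry the background potassium leak, and different members were abundant in different groups. Of 8 tested genes, 4 fell at D16 (Kcnk1, Kcnk2, Kcnk10 and Kcnk13) and 3 rose (Kcnk3, Kcnk9 and Kcnk12), beside 18.7% and 16.6% of all tested genes. Kcnk2, a mechanosensitive TREK channel that astrocytes also use, measured 8.402, 20.6 and 26.3 FPKM in D0, 1.46, 3.41 and 2.55 at D4, 1.98, 2.39 and 2.404 at D8, 1.76, 3.63 and 2.27 at D16 and 15.9, 18.1 and 23.5 in PN. The induced libraries lay below all others, and D0 and PN overlapped. It was lower at D16 than D0 (−2.35 ± 0.33, adjusted p = 1.88e-05) and lower than PN (−2.52 ± 0.33). Kcnk10, the related TREK channel, was still at 9.23, 10.1 and 19.4 FPKM at D4, with 7.15, 14.4 and 17.5 in D0, and fell to 4.74, 3.83 and 3.18 at D16 (−1.44 ± 0.299, adjusted p = 0.000653). In PN it measured 10.03, 8.74 and 10.5 FPKM.

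Kcnk1, a TWIK channel linked to the passive conductance of astrocytes, measured 3.84, 18.1 and 15.3 FPKM in D0, 2.26, 6.91 and 3.899 at D4, 2.29, 3.89 and 4.69 at D8, 4.03, 4.76 and 4.38 at D16 and 16.8, 24.1 and 30.7 in PN. D0 replicate 1 lay at the level of the induced libraries, and D0 replicate 2 (18.1) lay above PN replicate 1 (16.8), so every group overlapped D0. Against D0 the change was −1.09 ± 0.43 at D16 (adjusted p = 0.0386) and 1.08 ± 0.43 in PN (adjusted p = 0.0392). The first call was lost without D0 replicate 2 or 3 or any one D16 library, and the second without D0 replicate 1 or PN replicate 2 or 3. D16 was lower than PN (−2.17 ± 0.43, adjusted p = 0.000473), with no overlap and in every setting. Levels of Kcnk1 and Kcnk2 in PN stood beside the astrocyte transcripts given above, whose part in them was not tested.

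Kcnk13 encodes THIK-1, a channel also prominent in microglia, and was the two-pore gene that fell furthest. It measured 9.38, 11.7 and 20.8 FPKM in D0, 0.828, 1.09 and 2.27 at D4, 0.479, 0.683 and 0.878 at D8, 0.124, 0.4999 and 0.333 at D16 and 0.543, 0.884 and 0.305 in PN. All D0 libraries were above all others, and the change was −3.44 ± 0.27 at D16 (adjusted p = 4.51e-08) and −3.19 ± 0.27 in PN. The 6 microglial markers summed to 0.816 to 12.4 FPKM in D0, 0.0578 to 0.792 at D16 and 5.09 to 9.27 in PN. Of them, 3 (Cx3cr1, P2ry12 and Tyrobp) were listed at 0 in every D16 library. Aif1 measured 0.418, 0 and 0.760 FPKM at D16, against 0.417, 0 and 0.524 in D0. The part of microglia in the level of Kcnk13 was not tested. Kcnk12, its closest relative, went the other way, with 0.6695, 0.249 and 0.0631 FPKM in D0, 4.82, 3.798 and 5.88 at D4, 5.69, 8.24 and 5.51 at D16 and 7.08, 6.79 and 4.98 in PN (2.501 ± 0.21 at D16, adjusted p = 1.10e-07). The promoter windows of this related pair, at chr12:99964249-99964548 on the plus strand and chr17:87797945-87798244 on the minus strand, show how far they differ in base composition.
Kcnk13: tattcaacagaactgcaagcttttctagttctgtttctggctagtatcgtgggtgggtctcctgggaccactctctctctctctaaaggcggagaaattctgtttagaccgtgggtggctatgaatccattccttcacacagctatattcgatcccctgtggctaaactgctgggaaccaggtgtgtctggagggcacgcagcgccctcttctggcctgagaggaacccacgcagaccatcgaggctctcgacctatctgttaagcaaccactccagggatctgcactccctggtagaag
Kcnk12: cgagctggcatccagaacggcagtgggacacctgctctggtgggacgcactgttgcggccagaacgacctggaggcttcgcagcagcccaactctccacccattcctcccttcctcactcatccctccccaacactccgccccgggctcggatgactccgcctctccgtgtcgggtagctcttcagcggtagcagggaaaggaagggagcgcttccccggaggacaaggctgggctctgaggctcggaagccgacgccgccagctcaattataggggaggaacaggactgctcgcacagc
The Kcnk13 window held 52.7% G or C with 9 CG dinucleotides and that of Kcnk12 64.3% with 20.

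The acid-sensitive TASK channels Kcnk3 and Kcnk9 rose with induction. Kcnk3 measured 0.494, 0.271 and 0.1801 FPKM in D0, 7.197, 3.04 and 5.01 at D4, 8.17, 4.11 and 6.79 at D8, 7.304, 9.68 and 7.64 at D16 and 6.86, 4.94 and 2.94 in PN, a change of 2.81 ± 0.29 at D16 (adjusted p = 8.07e-07). All D16 libraries were above all PN libraries, with a difference of 0.69 ± 0.29 that was not called. Kcnk9 was listed at 0 in all D0 libraries and measured 0.893, 0.283 and 0.777 FPKM at D4, 2.28, 1.41 and 0.778 at D8, 3.91, 5.25 and 2.46 at D16 and 12.98, 11.1 and 15.3 in PN. It was lower at D16 than in PN (−1.57 ± 0.25, adjusted p = 6.09e-05), with no overlap. Kcnk5, an alkaline-activated two-pore channel, measured 1.43, 1.86 and 1.99 FPKM at D16 and 0.2603, 0.2201 and 0.3299 in PN, and was the only two-pore gene called higher at D16 than in PN (1.12 ± 0.19, adjusted p = 0.00015), a call lost under quantile normalization (0.93).

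Of the calcium-activated genes, Kcnma1 and Kcnn1 were higher at D16 and Kcnn2 was not. Kcnma1, the pore of the large-conductance BK channel, measured 0.0457, 0.0104 and 0.0739 FPKM in D0, 1.38, 0.646 and 0.4202 at D4, 2.905, 1.43 and 1.598 at D8, 4.06, 5.07 and 5.8001 at D16 and 10.1, 10.9 and 5.79 in PN. The D16 libraries were above those of D0, D4 and D8, and overlapped PN. The change from D0 was 0.76 ± 0.25 at D4, which was not called, 1.48 ± 0.25 at D8, 2.51 ± 0.25 at D16 (adjusted p = 5.72e-07) and 3.21 ± 0.25 in PN. Kcnmb4, the neuronal beta subunit of BK channels, was high earlier, with 0.346, 0.162 and 1.73 FPKM in D0, 8.91, 5.05 and 7.93 at D4, 10.9, 9.43 and 12.2 at D8, 7.27, 6.37 and 7.84 at D16 and 12.5, 15.3 and 10.1 in PN. It rose by 2.33 ± 0.28 at D16 (adjusted p = 3.51e-06), and every induced library was above D0. Its exons share 355 and 693 bases with Kcnmb4os1 and Kcnmb4os2 on the opposite strand, and the latter rose from a mean of 0.399 FPKM in D0 to 3.26 at D16 and 7.60 in PN, and these reads cannot be told apart. Kcnmb2, the other beta subunit tested, was listed at 0 in D0, stayed at or below 0.189 FPKM in the induced libraries and measured 1.81, 2.06 and 1.56 in PN.

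The promoter windows of the BK pore and its beta subunit lie at chr14:24004156-24004455 and chr10:116473474-116473773, both on the minus strand, and are shown because both genes rose and both windows hold several GGGCGGG matches, in capitals.
Kcnma1: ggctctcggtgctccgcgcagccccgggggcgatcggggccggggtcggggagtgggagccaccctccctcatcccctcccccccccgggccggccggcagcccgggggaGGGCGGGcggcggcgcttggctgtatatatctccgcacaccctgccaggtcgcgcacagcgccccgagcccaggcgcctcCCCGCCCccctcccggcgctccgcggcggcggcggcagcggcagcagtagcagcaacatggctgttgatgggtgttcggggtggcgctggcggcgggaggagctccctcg
Kcnmb4: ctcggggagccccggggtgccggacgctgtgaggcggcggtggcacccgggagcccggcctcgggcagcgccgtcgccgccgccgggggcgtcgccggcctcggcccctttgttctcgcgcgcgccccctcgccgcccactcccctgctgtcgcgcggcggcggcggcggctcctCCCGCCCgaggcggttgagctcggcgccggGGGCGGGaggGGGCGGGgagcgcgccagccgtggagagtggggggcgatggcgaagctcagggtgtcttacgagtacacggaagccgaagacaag
The Kcnma1 window held matches 140 and 60 bases upstream of the start site and that of Kcnmb4 matches 75, 45 and 35 bases upstream. They held 78% and 79% G or C with 36 and 48 CG dinucleotides.

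The small-conductance SK genes, which carry the afterhyperpolarization that follows spikes, split at D16. Kcnn1 measured 0.718, 0.349 and 0.789 FPKM in D0, 7.92, 5.51 and 6.13 at D4, 8.603, 6.78 and 8.94 at D8, 6.17, 11.9 and 8.497 at D16 and 3.904, 4.84 and 2.17 in PN. The induced libraries were all above D0, and D16 was above PN without overlap (1.09 ± 0.25, adjusted p = 0.00139). That call was lost without D16 replicate 2 and without PN replicate 3, and the change was 0.62 without both. Kcnn2 measured 2.39, 0.674 and 1.61 FPKM in D0, 2.05, 5.64 and 1.65 at D4, 2.86, 3.79 and 2.82 at D8, 2.09, 0.621 and 0.913 at D16 and 4.65, 11.1 and 6.15 in PN. D0 and D16 overlapped, and D16 was lower than PN (−1.89 ± 0.37, adjusted p = 0.000406). Kcnn3 was called in no comparison, with 1.18 to 3.46 FPKM in D0 and 0.509 to 1.01 at D16. Kcnn4, the intermediate-conductance channel of blood and glial cells, measured 3.296, 0.604 and 1.14 FPKM in D0, was at most 0.207 in the induced and PN libraries and did not pass the filter.

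The sodium-activated channels, which respond to sodium entry during firing, were both higher at D16 than at D0. Kcnt1, known as Slack, measured 0.1703, 0.0318 and 0.0375 FPKM in D0, 1.996, 1.06 and 1.19 at D4, 4.89, 2.503 and 3.62 at D8, 6.14, 2.74 and 4.46 at D16 and 1.39, 3.23 and 0.524 in PN. It rose by 2.29 ± 0.32 at D16 (adjusted p = 1.96e-05) and by 1.21 ± 0.32 in PN, a call lost without PN replicate 2. D16 was higher than PN by 1.08 ± 0.32 (adjusted p = 0.00903), but the groups overlapped and the call was lost without D16 replicate 1 or PN replicate 3. Kcnt2, known as Slick, rose by 1.36 ± 0.198 at D16 and 1.300 ± 0.198 in PN. Kcnu1, a channel of sperm, was at 1.17 to 1.54 FPKM in PN and 0.0969 to 0.392 at D16.

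The cytoplasmic beta subunits of Kv1 channels changed in opposite directions. Kcnab1 measured 6.2995, 23.5 and 12.2 FPKM in D0, 0.488, 0.889 and 0.852 at D4, 0.723, 1.59 and 0.891 at D16 and 2.66, 5.796 and 2.53 in PN, and fell (−2.71 ± 0.35, adjusted p = 8.12e-06) at D16. Kcnab2, the beta subunit most abundant in neurons, measured 1.87, 2.54 and 3.67 FPKM in D0, 8.42, 10.2 and 6.92 at D4, 6.32, 11.5 and 7.804 at D16 and 22.9, 24.01 and 11.8 in PN. It rose by 1.36 ± 0.27 at D16 (adjusted p = 0.000449), with every induced library between D0 and PN. Its D16 level was lower than PN (−1.08 ± 0.27), a call lost without D16 replicate 1 or PN replicate 1 or 2. Kcnab3 was called higher at D8 only, by 1.22 ± 0.28, and lost that call without D0 replicate 2. None of the 4 KCNE subunits passed the filter, the highest value being 0.890 FPKM for Kcne3.

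Set directly against primary neurons, D16 cells had 3 channel genes called higher (Kcnk5, Kcnn1 and Kcnt1) and 25 called lower of 62 tested, beside 34.6% of all tested genes called, 19.6% higher and 15% lower. Under quantile normalization the split became 0 higher and 28 lower, without PN replicate 3 it was 1 and 28, and without D16 replicate 2 it was 2 and 25. The lower calls of Kcnab1 and of Kcnj11 were lost without PN replicate 2, and that of Kcnj11 also without D16 replicate 3. The median difference of the 62 genes was −0.71, against 0.06 over all tested genes. The 25 genes called lower were 11 of 29 tested voltage-gated genes, 5 of 9 auxiliary, 4 of 9 inward rectifier, 4 of 8 two-pore and 1 of 4 calcium-activated. Of the 3 sodium- or pH-activated genes 0 were called lower. Neuron markers moved in the same direction, with 6 of 8 called lower at D16 than in PN and none higher, and their part in the channel genes was not tested. Of the genes compared with D0 in both groups, 25 were called higher at D16 and in PN. The 2 genes Kcnf1 and Kcnk1 were called higher in PN and lower at D16. Another 2, among them Kcng2, were called higher at D16 and not called in PN, and 14 were called higher in PN and not called at D16. For 11 of these 14, D16 was also called lower than PN, which is the test of that difference. The 3 not called lower were Kcna2, Kcnip3 and Kcnu1. For Kcng2, D16 against PN was not called. Shares over all tested genes were not counted for these joint patterns, so whether they are particular to channel genes is not known.

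**Figure D3:**
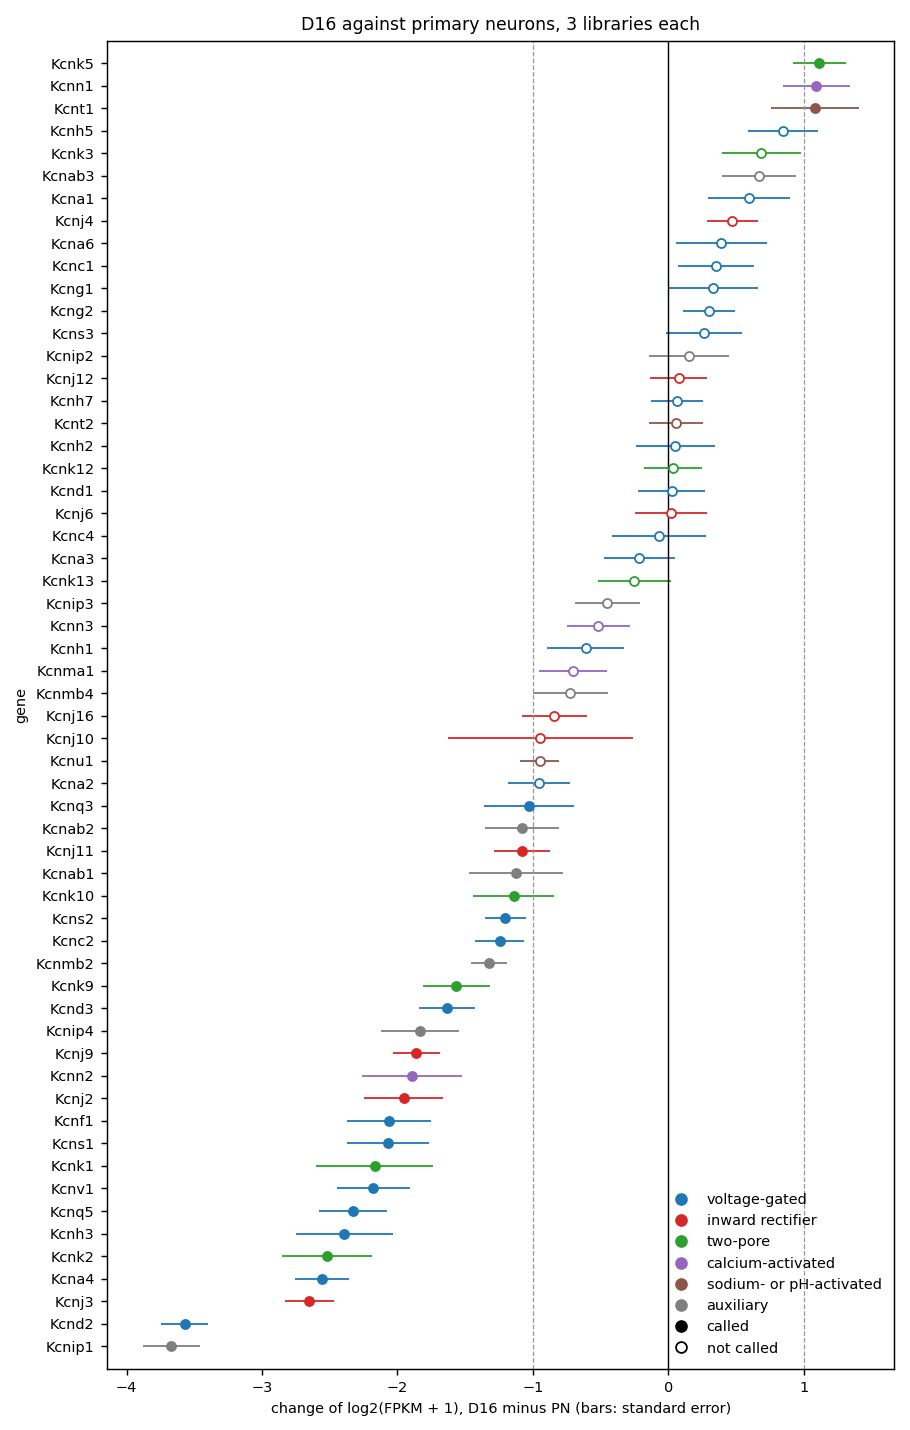
Change of log2(FPKM + 1) of D16 minus PN (horizontal axis, bars standard error, 3 libraries each) for 58 of the 62 tested genes (vertical axis, sorted). Colour marks the class and filled points the called genes; Kcnip1 and Kcnd2 lie lowest, near −3.67 and −3.57, and the 3 filled points on the right are Kcnk5, Kcnn1 and Kcnt1.

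The days of induction were compared with D0 one by one. Of the 27 genes called higher at D16, 16 were called at all 3 days, among them Kcnj4, Kcnc1, Kcnn1, Kcnk3, Kcnk12 and Kcnmb4. Another 5 were first called at D8, among them Kcna6, Kcnk9, Kcnma1 and Kcnq3, and 5 first at D16 (Kcng2, Kcnj11, Kcnj3, Kcnj6 and Kcnt2), while Kcnh7 was called at D4 and D16 and not at D8. A first call at a later day is not a test of the step between days. Shares over all tested genes were not counted for these patterns of days. Among these calls, leaving out 1 library ended, among others, those of Kcna6 at D8 (D0 replicate 2), Kcnh3 at D4 (D4 replicate 1) and D8 (D8 replicate 1 or 3), Kcnh7 at D4 (D4 replicate 1 or 3) and Kcnt1 at D4 (D4 replicate 1). Of the 11 genes called lower at D16, 8 were called at all 3 days, and of these Kcnk1 lost its call at D4 and D8 without D0 replicate 2 or 3, without D4 replicate 1 or 3 (D4) and without D8 replicate 1 (D8). Between D4 and D8 1 of the 62 was called, beside 2.01% of all tested genes, and the count was 0 without D4 replicate 2 or 3, without D8 replicate 1 or 3, with equal totals and with these 2 groups fitted alone. Between D8 and D16 limma called none of the 62, with 5 at an unadjusted p below 0.05, beside 0.0286% of all tested genes. Kcnma1 had a difference of 1.03 ± 0.25 in that step.

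Promoter windows of RefSeq were found for 67 of the 92 genes, 92 windows in all. The 6 motifs were searched on both strands: CAGCTG and CAGATG, which proneural factors are known to bind, GGGCGGG of Sp1, TGACGTCA of CREB, and a short (TTCAGCACC) and a long part of the REST element, which overlap each other. CAGCTG was in 25% of the gene windows and 16.3% of all 32851 windows, CAGATG in 20.7% and 17.2%, and GGGCGGG in 30.4% and 25.6%. In the 19 windows of genes called higher at D16, CAGCTG was in 15.8%, CAGATG in 5.26% and GGGCGGG in 36.8%. In the 22 windows of genes called lower at D16 they were in 31.8%, 18.2% and 22.7%. TGACGTCA was in none of the 92 windows, against 1.79% of all windows. TTCAGCACC was in the window of Kcnh6 alone, against 0.371% of all windows, and the long part in none, against 0.0244%. The median G or C content was 64.3% in the 19 windows of genes called higher at D16 and 52.8% in the 22 windows of genes called lower, against 52.7% over all windows. The 19 windows came from 15 of the 27 genes called higher, as the others had no window. The 22 came from all 11 genes called lower, so the 2 sets are not equally complete. The median number of CG dinucleotides was 18 and 7 in those sets and 7 over all windows. Windows of 1 gene are not independent, and these counts are descriptions without a test.

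A list of 27 genes whose products bind, anchor or work beside potassium channels was followed in the same fit, and 24 of them were tested. At D16 9 were called higher and 4 lower than D0, beside 16.6% and 18.7% of all tested genes, and in PN 15 higher and 3 lower, beside 17.1% and 23.9%. Hcn2, a pacemaker channel that opens on hyperpolarization, measured 3.01, 2.58 and 3.23 FPKM in D0, 37.5, 80.9 and 44.4 at D16 and 30.1, 20.9 and 19.3 in PN. It was called higher at D16 than in PN, by 1.12 ± 0.27, while Hcn4 was lower (−1.91 ± 0.23). The highest Hcn2 value, 80.9 FPKM, was that of D16 replicate 2 alone. Calls of partner genes were not followed through the alternative settings, so their dependence on 1 library is not known.

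Dpp6 and Dpp10, membrane partners of Kv4 channels, were both called higher at D16 and in PN, although Kcnd2 was not at D16. Dpp6 measured 0.7802, 0.0562 and 0.745 FPKM in D0, 15.9, 16.02 and 38.7 at D16 and 42.4, 47.2 and 26.9 in PN. Of the 6 genes that cluster or modulate Kv1 channels, 1 (Cntn2) was higher at D16 and 5 in PN, beside 16.6% and 17.1% of all tested genes. Lower at D16 than in PN were 5 of 6, beside 15%. Dlg2, a scaffold of Kv1 clusters, measured 0.336, 0.214 and 0.735 FPKM in D0, 0.645, 0.851 and 1.64 at D16 and 72.4, 79.99 and 46.4 in PN. Lgi1 was at most 0.0751 FPKM outside PN and measured 11.2, 17.6 and 10.8 there. Of the anchors that hold Kv7 channels at the axon initial segment, Sptbn4 rose by 3.42 ± 0.23 at D16 while Ank3 was lower at D16 than in PN (−1.99 ± 0.29).

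Dag1 and Dmd, of the complex that holds Kcnj10 channels at astrocyte endfeet, were both called lower than D0 at D16 and in PN. Nalcn, a sodium leak channel that opposes the potassium leak, measured 5.16, 2.36 and 6.07 FPKM in D0, 0.08899, 0.0693 and 0.0679 at D16 and 5.79, 9.97 and 3.28 in PN, lower at D16 than D0 (−2.29 ± 0.29, adjusted p = 7.46e-06). Abcc8, the receptor subunit that pairs with Kcnj11, rose by 2.25 ± 0.25 at D16 (adjusted p = 1.45e-06). None of the 3 Kv2 partners was called in any of the comparisons.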

How the data were processed

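Expression was measured by RNA sequencing in 15 mouse libraries, 5 groups of 3. FPKM values of 24346 gene symbols in all libraries were deposited by the authors as 1 table. Reads were placed on mm10 (GRCm38), per the submitters' processing notes; the aligner, quantifier, annotation and strand setting are not given in the sources used here. Each of the 15 columns of values was matched to its sample by title, and 0 other value columns were left unused. Read counts were not used here. The whole-number steps of FPKM up to 0.5 gave relative depths of 0.683 to 1.97 between libraries (40.9 to 66.0% of ratios within 0.02 log2 of whole-number steps, against medians of 6.07 to 9.51% at other offsets), and absolute depth is unknown.

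Values were transformed as log2(FPKM + 1), and the 13983 genes at 1 FPKM or more in at least 3 libraries were fitted with limma 3.58.1 in R 4.3.3, in 1 group-means model over 15 libraries with 10 residual degrees of freedom and a variance trend. P-values were adjusted by Benjamini-Hochberg over all tested genes within each of 7 comparisons (each other group against D0, then D16 against PN and the steps from D4 to D8 and from D8 to D16). Calls required an adjusted p under 0.05 together with a log2 change of 1 or more in size. The script was tested on simulated data, with 100 genes changed at each size in D16 against D0. The changed genes were drawn only from those with a mean log2(FPKM + 1) above 2, and were changed on that scale. The script called 35% of the 2-fold and 95% of the 4-fold changes, and 3 of 13783 unchanged genes. Recovery among genes of lower level, which include many of the channel genes, was not tested. A 2-fold change lies at the size required for a call, so a gene not called may still have changed. Same-numbered libraries deviated together between D8 and D4 (correlations of 0.329 to 0.454 in all 3 pairs), and in no other comparison did all 3 pairs exceed 0.1.

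Values per library were given for called genes that reached 5 FPKM in the higher group (at most 4 per subfamily and comparison), for a fixed panel of 20 genes, and for genes singled out by a small count; a few others were named after their values were seen. Some genes that enter the counts are not reported here by name. Members, marker lists and the partner list were chosen with earlier results of these data known. Positions came from GENCODE M21 and promoter windows from RefSeq (GRCm38.p6). The closing section gives the results under 23 other settings and 1 added after seeing the data.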

Additional observations from a re-analysis of the deposited data

Results flagged for a closer look

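Kcnf1 and Kcnk1 were called in opposite directions against the shared D0 libraries, lower at D16 and higher in primary neurons, and the difference between the D16 and PN effects is itself the comparison of D16 with PN. For Kcnf1 that difference was −2.06 (log2), from a change of −1.02 at D16 and one of 1.04 in PN. For Kcnk1 it was −2.17, from −1.09 at D16 and 1.08 in PN. The differences of D16 against PN were called by limma in all 24 alternatives, whereas each call against D0 was lost in 4 to 9 of them. The D0 libraries of Kcnk1 measured 3.84, 18.1 and 15.3 FPKM. Groups of 3 libraries were too small for a test of single libraries.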

How the results depend on the processing

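Each comparison was refitted under 24 alternatives, followed for the potassium channel genes only, and no call or count of these changed direction. The number of potassium channel genes called stayed within 1.5 times its value except as follows. For D4 against D0, 25 calls became 41 with a pseudocount of 0.1 and 38 with no minimum on the change. With a filter at 5 FPKM, which left 34 of the genes tested, PN against D0 went from 45 to 27 and D16 against PN from 28 to 16. The single call of D8 against D4 became 0 with equal totals and with these 2 groups fitted alone. Leaving out each library in turn gave 20 to 27 calls for D4 against D0, 30 to 35 for D8 against D0, 36 to 38 for D16 against D0, 40 to 46 for PN against D0, 24 to 29 for D16 against PN, 0 to 1 for D8 against D4 and 0 to 0 for D16 against D8. The replicate block left the counts at 25, 32, 38, 45, 28, 1 and 0 in the 7 comparisons, and the pairing of D8 with D4 by number changed no count. Calls that held in every alternative that tested the gene numbered 19 of 25 at D4, 26 of 32 at D8, 34 of 38 at D16, 39 of 45 in PN and 21 of 28 for D16 against PN. One alternative, D16 replicate 2 and PN replicate 3 both left out, was chosen after seeing the data. Absolute depth is unknown, so no limit can be given for genes listed at 0, and where the text gives no cause for a change of count the cause was not tested.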
